A study of Mus musculus with 6 samples.

Results

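The collagens are the family of triple-helical proteins that build most of the extracellular matrix. Their genes were taken here as the rows of the count matrices whose symbol is Col, a number, a and a number with nothing after it. This rule found 44 of 32285 genes, of which 11 encode fibrillar chains, 6 encode the type IV chains of basement membranes and 27 encode other collagens. All 44 had at least 1 UMI (unique molecular identifier, a counted RNA molecule), and together they held 3215343 UMIs.

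The libraries came from the tibialis anterior (TA), a muscle of the shin, of mice labelled wildtype. There were 6 of them: muscle on day 1 and on day 3 after injection of cardiotoxin, a venom protein that destroys muscle fibres, and uninjured muscle, called day 0, each at ZT16 and at ZT4. Zeitgeber time (ZT) counts hours from lights on. Mononucleated cells of both hindlimbs, sorted to leave out dead cells stained by propidium iodide, were profiled with the 10x Chromium 3′ v3.1 kit, so whole muscle fibres were not measured. The age, sex and strain of the mice and the number of animals behind a library are not given in the sources used here. Each day and collection time was 1 library and no test was run, and a difference between libraries cannot be told apart from a difference between animals or preparations. The 95% intervals below are exact and cover counting error only.

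In background terms, collagen chains assemble as triple helices inside the cell and are then secreted and crosslinked. Fibrillar collagens form the banded fibres of tendon and of the connective tissue around muscle fibres, type IV collagen forms the sheet that wraps each muscle fibre and capillary, and type VI collagen links the sheet to the fibres around it. Fibro-adipogenic progenitors, the resident fibroblasts of muscle, are known as a main source of muscle collagen, and satellite cells, the muscle stem cells, lie directly against type IV collagen.

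Type IV genes lie in head-to-head pairs. In GENCODE vM21 (GRCm38) the annotated Col4a1 and Col4a2 genes overlap by 22 bases at their starts, Col4a3 and Col4a4 are 71 bases apart, and Col4a5 and Col4a6 are 1308 bases apart. The stretch between Col4a4 and Col4a3 is shown because these chains differed together between days, the Col3a1 window because it is the member with the most UMIs, and the Col5a3 window because this member differed between collection times in the most cell classes. Col3a1 (ENSMUSG00000026043) spans chr1:45311538-45349706 and Col5a3 (ENSMUSG00000004098) chr9:20770050-20815067 in that annotation. The sequences are read from the RefSeq promoter table (GRCm38.p6), which has a window for 35 of the 44 members. Capitals mark 3 motifs searched on both strands. The first has the letters TATAAA and is a core promoter box. The second has the letters CCAAT and is a site of the factor NF-Y. The third has the letters GGGCGG, the GC box that Sp1 binds, and it appears as its reverse complement in the Col5a3 window. The E-box, with the letters CACGTG and known as a site of clock factors, was searched as well.
Col4a4 (chr1:82586850-82586920, minus strand): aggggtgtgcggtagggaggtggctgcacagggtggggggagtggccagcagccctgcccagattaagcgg
Col3a1 (chr1:45311288-45311537, plus strand): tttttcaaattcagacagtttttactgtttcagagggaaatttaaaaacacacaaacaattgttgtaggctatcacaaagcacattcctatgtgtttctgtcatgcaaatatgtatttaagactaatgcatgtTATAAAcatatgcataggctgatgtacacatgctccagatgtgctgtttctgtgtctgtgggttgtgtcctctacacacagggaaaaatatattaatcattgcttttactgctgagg
Col5a3 (chr9:20815068-20815317, minus strand): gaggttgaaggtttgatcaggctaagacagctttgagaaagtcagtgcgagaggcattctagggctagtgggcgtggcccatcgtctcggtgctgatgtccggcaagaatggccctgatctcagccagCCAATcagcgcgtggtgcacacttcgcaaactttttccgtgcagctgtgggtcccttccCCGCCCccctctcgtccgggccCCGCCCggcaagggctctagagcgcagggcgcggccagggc

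The stretch between Col4a4 and Col4a3 holds 69.0% G and C and none of the 4 motifs. The Col3a1 window holds 35.2% G and C and a TATAAA, and the Col5a3 window holds 62.8% G and C, a CCAAT and a pair of GC boxes. Over the 38 windows of the members (250 bases before the start), the CCAAT letters were in 13, the core promoter box was in 5, the GC box in 22 and the E-box in 0. Among all 32851 windows of the table the shares were 33.8% for the CCAAT letters, 12.4% for the core promoter box, 32.7% for the GC box and 6.02% for the E-box. A match is a run of letters and no more, and a missing match says only that these letters are not in this window.

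The matrices held 68724 barcodes, of which 58469 were kept as cells (7638 to 11168 in a library), with median depths of 3172 to 11128 UMIs per cell. Library pairs shared 21 to 65 barcodes, at most 0.566% of the smaller library. Cells were clustered without the collagen genes, so that no member defines a class. The classes were named from lists of markers, so counts of those same markers are no separate check of the names. Over all libraries together, 12 of 12 markers were at least 2-fold over other cells in fibro-adipogenic-like cells. The count was 9 of 9 in tenocyte-like cells, 12 of 12 in endothelial-like cells and 10 of 10 in mural-like cells (pericytes and smooth muscle). In myogenic-like cells it was 10 of 10 and in glial-like cells 9 of 9. Levels are CPM, the usual scaling of the UMIs of a gene to the total UMIs of its class in a library. The kit counts each transcript at its 3′ end, so CPM is not divided by transcript length. A member was read as above free RNA where it had at least 10 UMIs and at least 3-fold the level, per UMI and per cell, of neutrophil-, T cell-, NK cell- and B cell-like cells of the same library. On day 0 this background was small, with 65 cells and 309589 UMIs at ZT16 and 218 cells and 1011416 UMIs at ZT4. At ZT16 3 of its UMIs are 9.69 CPM. A member with 0 UMIs in the background passed with 10 UMIs, so a call at a few CPM cannot exclude free RNA there.

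By that measure 41 of the 44 members were above free RNA in at least 1 class, all but Col9a1, Col6a4 and Col10a1. Fibro-adipogenic-like cells had 35 members above it of 36 with 10 UMIs, where the share of all genes was 62.7%. Tenocyte-like cells had 28 of 28 (all genes 31.7%), mural-like cells 21 of 21 (50.6%), glial-like cells 22 of 22 (35.8%), myogenic-like cells 25 of 27 (43.9%) and endothelial-like cells 16 of 22 (50.5%). Neutrophil-, T cell-, NK cell- and B cell-like cells enter the background itself and had 0. The number above it in every library of a class was 19 in fibro-adipogenic-like cells and 13 in mural-like cells. It was 8 in myogenic-like cells and 4 in endothelial-like cells (Col4a1, Col4a2, Col15a1 and Col8a1).

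**Figure D1:**
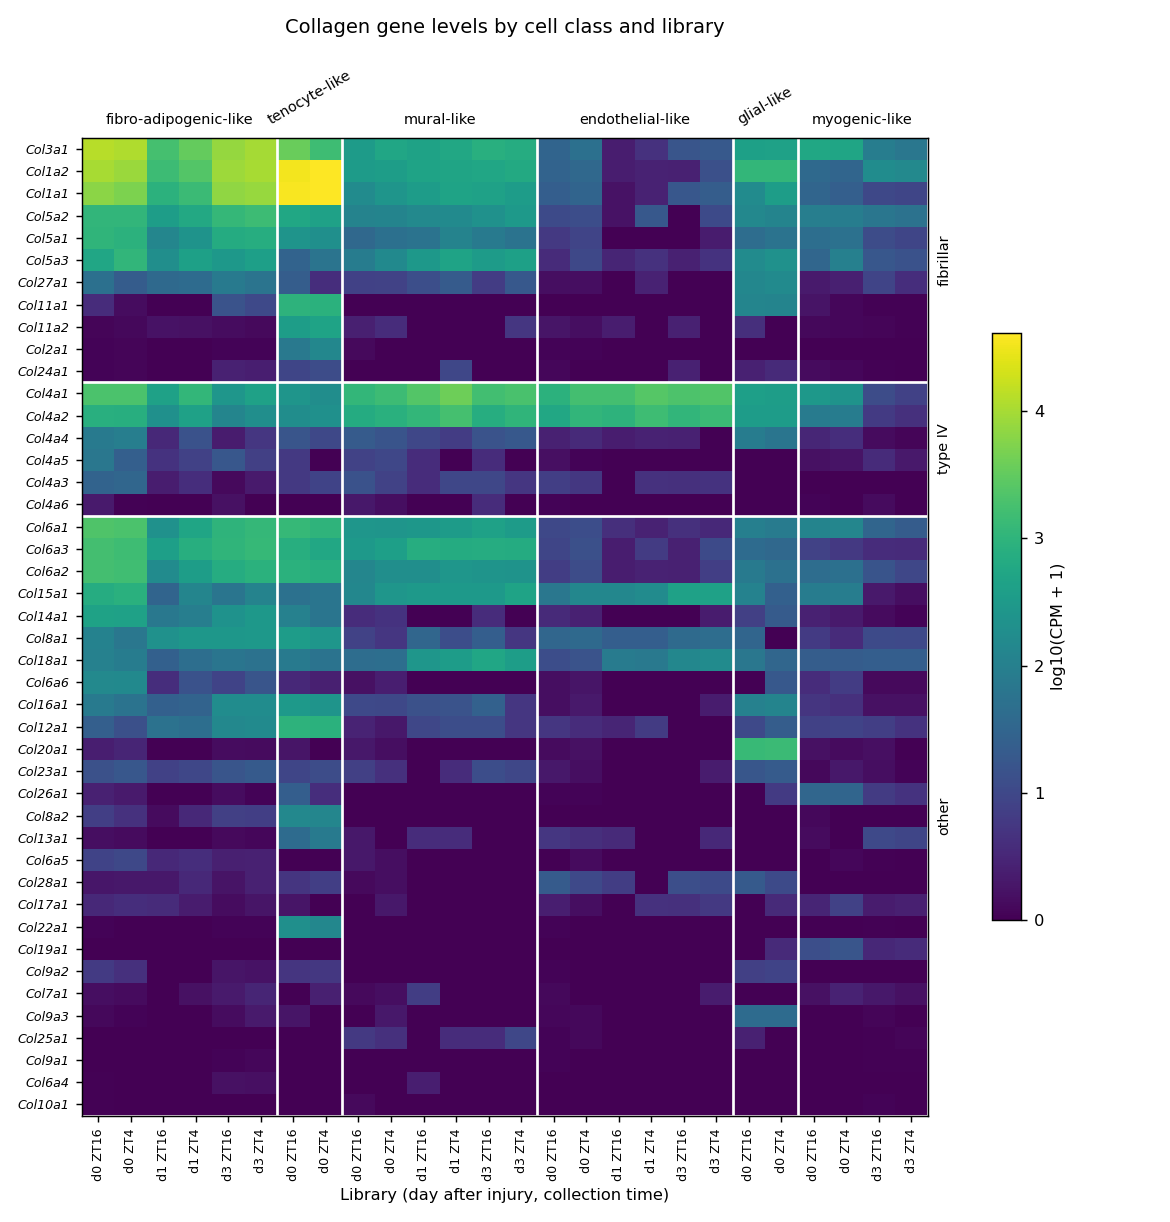
Level of the 44 collagen genes as log10(CPM + 1) in 6 cell classes by library (d0, d1 and d3 are days 0, 1 and 3), with fibrillar, type IV and other members in separate blocks. The brightest squares are Col1a1 and Col1a2 in tenocyte-like cells, Col4a1 and Col4a2 are bright in every class but day 3 myogenic-like cells, and Col20a1 and Col9a3 stand out in glial-like cells alone among the classes drawn.

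The classes differed both in the kind of collagen and in its amount. Tenocyte-like cells, the fibroblasts of tendon, put 8.16% and 8.94% of their UMIs into collagen genes at ZT16 and ZT4 on day 0, of which 93.1% and 94.7% were fibrillar. Fibro-adipogenic-like cells put in 4.27% and 3.78% on day 0, of which 75.9% and 74.3% were fibrillar. In endothelial-like cells the collagen share was 0.178% and 0.315% on day 0, and 84.9% and 87.9% of it was type IV. Mural-like cells stood between them, with 0.384% and 0.495% on day 0, of which 48.1% and 46.3% was type IV. Glial-like cells gave 0.507% and 0.526% and myogenic-like cells 0.151% and 0.151%, with fibrillar collagens as the largest block in both classes. Mature muscle-like cells were at 0.0177% and 0.0147% on day 0, with 5 members above free RNA in any library.

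**Figure D2:**
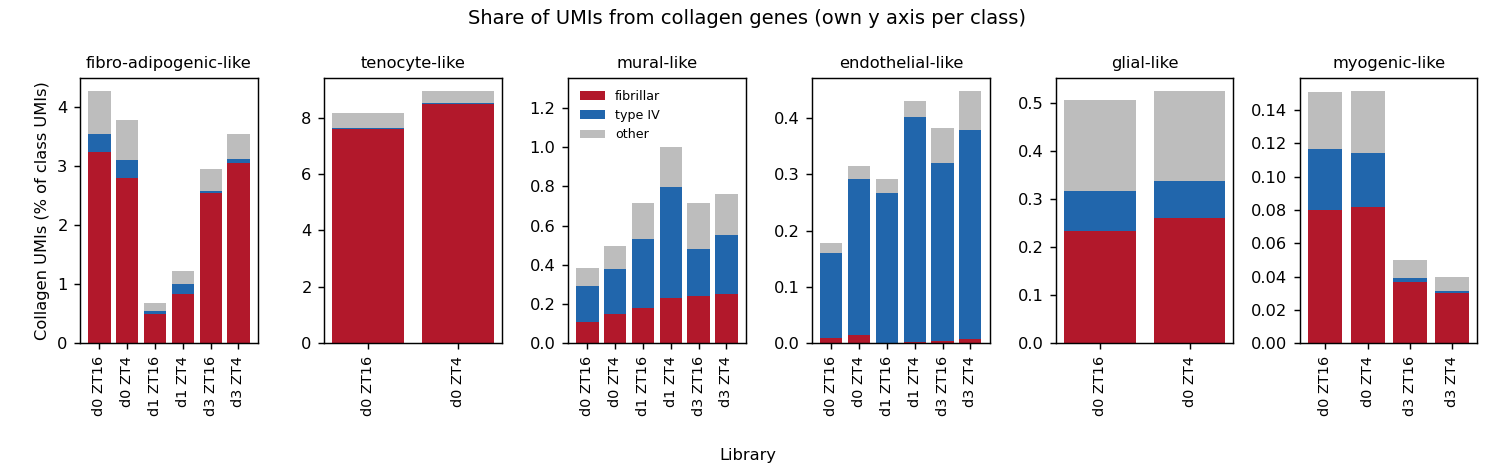
Share of class UMIs from fibrillar, type IV and other collagen genes (stacked bars, % of class UMIs, own axis per class) by library. Fibro-adipogenic-like bars are lowest on day 1, at 0.674% (ZT16) and 1.23% (ZT4), mural- and endothelial-like bars are higher on days 1 and 3 than on day 0 at the same collection time, and myogenic-like bars are lower on day 3.

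Fibro-adipogenic-like cells, with 2450 and 3063 cells at ZT16 and ZT4 on day 0, then 166 and 89 on day 1 and 449 and 528 on day 3, held most fibrillar collagen RNA. Their fibrillar chains Col1a1, Col1a2, Col3a1, Col5a1 and Col5a2 were lowest on day 1 and higher again on day 3. Col5a3 and Col27a1 departed from this at ZT4. Their type IV chains were low on both days. Collagens made up 4.27% and 3.78% of their UMIs at ZT16 and ZT4 on day 0, then 0.674% and 1.23% on day 1 and 2.95% and 3.55% on day 3. Type IV chains were 7.13% and 7.74% of these collagen UMIs on day 0, then 9.70% and 12.8% on day 1 and 1.39% and 1.79% on day 3.

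Among the fibrillar chains, Col3a1, the chain of the homotrimeric type III collagen of pliable tissue, had 13135 and 11619 CPM at ZT16 and ZT4 on day 0, 1796 and 3317 CPM on day 1 and 7483 and 9848 CPM on day 3. Col1a2, a chain of the main fibre-forming collagen, had 10108 and 8268 CPM on day 0, 1429 and 2382 CPM on day 1 and 8621 and 9991 CPM on day 3. Its partner chain Col1a1 had 6455 and 5074 CPM on day 0, 914 and 1398 CPM on day 1 and 7011 and 7992 CPM on day 3. In all 3 genes both day 1 libraries were below all others, and of these 3 only Col1a1 was above day 0 on day 3 at both collection times. On the log2 scale Col3a1 on day 1 against day 0 was -2.87 at ZT16 (counting interval -2.91 to -2.83) and -1.81 at ZT4 (-1.85 to -1.77). On day 3 against day 1 Col1a1 was 7.67-fold higher at ZT16 and 5.72-fold higher at ZT4.

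The type V chains, which join type I fibrils and limit their width, did not keep one another's proportions. Col5a1 had 1048 and 928 CPM at ZT16 and ZT4 on day 0, 131 and 237 CPM on day 1 and 691 and 758 CPM on day 3. Col5a2 had 1096 and 1071 CPM on day 0, 369 and 610 CPM on day 1 and 1184 and 1445 CPM on day 3. The UMI ratio of Col5a2 to Col5a1 was thus 1.05 and 1.15 on day 0, then 2.82 and 2.57 on day 1 and 1.71 and 1.91 on day 3. Col5a3, a less widespread type V chain, had 535 and 1084 CPM on day 0, 190 and 425 CPM on day 1 and 283 and 395 CPM on day 3.

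The minor fibrillar chains went another way. Col11a1, a chain of the type XI collagen of cartilage and tendon, had 2.87 and 0.418 CPM (74 and 12 UMIs) at ZT16 and ZT4 on day 0, 0 UMIs in both day 1 libraries and 14.0 and 9.51 CPM on day 3. The day 3 over day 0 fold was 4.86 at ZT16 and 21.9 at ZT4. The 9 tenocyte markers together stood at 114 and 54.6 CPM in these cells on day 0, 156 and 115 CPM on day 1 and 243 and 186 CPM on day 3. The 10 mural markers stood at 234 and 243 CPM, 109 and 142 CPM, and 555 and 612 CPM. The part of either in the Col11a1 level was not tested. Col24a1 had 3 and 4 UMIs on day 0, 0 on day 1 and 16 and 15 UMIs on day 3, where its level was 1.68 and 1.43 CPM. Col27a1, a fibrillar chain with a short helix, had 50.2 and 21.4 CPM on day 0, 37.4 and 39.5 CPM on day 1 and 78.6 and 59.4 CPM on day 3. Col2a1 and Col11a2, the chains known from cartilage, stayed at or under 0.680 CPM in every library of these cells.

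The type IV chains of fibro-adipogenic-like cells were lower on days 1 and 3. Col4a1, with Col4a2 the chain of the common network, had 2052 and 1986 CPM at ZT16 and ZT4 on day 0, 443 and 1116 CPM on day 1 and 265 and 432 CPM on day 3. Col4a2 had 824 and 788 CPM on day 0, 203 and 435 CPM on day 1 and 126 and 193 CPM on day 3. On day 3 Col4a1 was 7.75-fold lower than on day 0 at ZT16 and 4.60-fold lower at ZT4, and Col4a2 was 6.54-fold and 4.09-fold lower.

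The other type IV chains, known for the networks of kidney, lung and smooth muscle, were less abundant and further apart. Col4a4 had 75.7 and 91.3 CPM at ZT16 and ZT4 on day 0, 2.38 and 13.4 CPM on day 1 and 1.26 and 4.38 CPM on day 3. Col4a3, which starts 71 bases away on the other strand, had 27.8 and 31.9 CPM on day 0, 1.36 and 3.04 CPM on day 1 and 0.316 and 1.14 CPM on day 3, and with thinned cells its day 1 difference at ZT4 was log2 0.14. Both genes of this pair were far lower in all 4 injured libraries, Col4a3 on day 3 by 75.5-fold at ZT16 and 26.9-fold at ZT4. Col4a5 had 67.1 and 23.8 CPM on day 0, 3.74 and 6.68 CPM on day 1 and 16.6 and 6.56 CPM on day 3. Col4a6, its neighbour on the X chromosome, had 30 and 2 UMIs on day 0, then 0 and 0 on day 1 and 6 and 0 on day 3.

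Col6a1, Col6a2 and Col6a3 were lowest on day 1, but not in step. Col6a1 had 2151 and 2000 CPM at ZT16 and ZT4 on day 0, 215 and 503 CPM on day 1 and 989 and 1162 CPM on day 3, and Col6a2 1722 and 1541, 167 and 366, and 724 and 864 CPM. Col6a3, the large chain of the same helix, had 1703 and 1539 CPM on day 0, 404 and 791 CPM on day 1 and 1055 and 1220 CPM on day 3. The UMI ratio of Col6a3 to Col6a1 was 0.792 and 0.769 on day 0, then 1.88 and 1.57 on day 1 and 1.07 and 1.05 on day 3. The alternative partner chains Col6a6 and Col6a5 did not return: Col6a6 had 146 and 154 CPM on day 0, 3.06 and 13.4 CPM on day 1 and 7.47 and 15.5 CPM on day 3. Col6a5 had 7.40 and 8.89 CPM on day 0, 2.38 and 3.04 CPM on day 1 and 1.58 and 1.62 CPM on day 3.

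Of the multiplexins, which carry sugar chains and sit in or near basement membranes, Col15a1 had 710 and 851 CPM at ZT16 and ZT4 on day 0, 29.9 and 127 CPM on day 1 and 60.6 and 116 CPM on day 3. On day 1 at ZT16 it was not above the background by the rule, where neutrophil-like cells, which are part of that background, had 21.1 CPM. T cell-like cells had 0 to 3.57 CPM over their 5 libraries. Col18a1, the precursor of endostatin, had 104 and 86.4 CPM on day 0, 24.8 and 45.6 CPM on day 1 and 60.2 and 53.6 CPM on day 3.

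Fibril-associated and short-chain collagens split by day. Col14a1, which coats fibrils, had 454 and 426 CPM at ZT16 and ZT4 on day 0, 68.4 and 91.7 CPM on day 1 and 222 and 284 CPM on day 3. Col12a1, the fibril-associated chain of tendon and loaded tissue, had 23.6 and 12.5 CPM on day 0, 52.7 and 46.2 CPM on day 1 and 140 and 157 CPM on day 3, and was the single member called higher on day 1 than on day 0. Col16a1 had 74.3 and 55.0 CPM on day 0, 25.2 and 27.9 CPM on day 1 and 171 and 176 CPM on day 3. Col8a1, a network collagen of vessels, had 111 and 67.7 CPM on day 0, 216 and 278 CPM on day 1 and 277 and 282 CPM on day 3.

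The transmembrane and rare members had low levels. Col23a1, a transmembrane collagen, had 13.0 and 16.6 CPM at ZT16 and ZT4 on day 0, 6.80 and 8.50 CPM on day 1 and 15.5 and 19.3 CPM on day 3. Col8a2 had 6.32 and 3.52 CPM on day 0, 0.340 and 2.43 CPM on day 1 and 6.63 and 6.18 CPM on day 3. Col9a2, a fibril-associated chain of cartilage, had 129 and 94 UMIs on day 0, 0 UMIs on day 1 and 0.842 and 0.666 CPM on day 3. Col7a1, the anchoring fibril chain, had 0.504 and 0.383 CPM on day 0, 0 and 0.607 CPM on day 1 and 11 and 21 UMIs on day 3. Col17a1, Col20a1, Col26a1, Col28a1 and Col13a1 stayed at or under 2.96 CPM in every library.

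Calls between days took a fold of at least 2 in the same direction at both collection times and at least 30 UMIs over the libraries compared. Of 32 members measured on day 1 against day 0, 1 was higher, where 10.1% of all genes were, and 17 were lower, where 20.2% of all genes were. On day 3 against day 0, 6 of 34 were higher (all genes 9.04%) and 12 were lower (all genes 12.8%). On day 3 against day 1, 15 of 28 were higher (all genes 9.81%) and 0 were lower (all genes 7.0%). The median log2 difference of the measured members on day 1 against day 0 was -2.81 at ZT16 and -1.38 at ZT4, against -0.44 and -0.18 over all genes measured. On day 3 against day 0 it was -0.80 and -0.64, against -0.20 and -0.14 over all genes. Both comparisons use the same day 0 libraries, and the day 3 against day 1 medians were 1.54 and 1.15 (all genes 0.17 and -0.03).

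**Figure D3:**
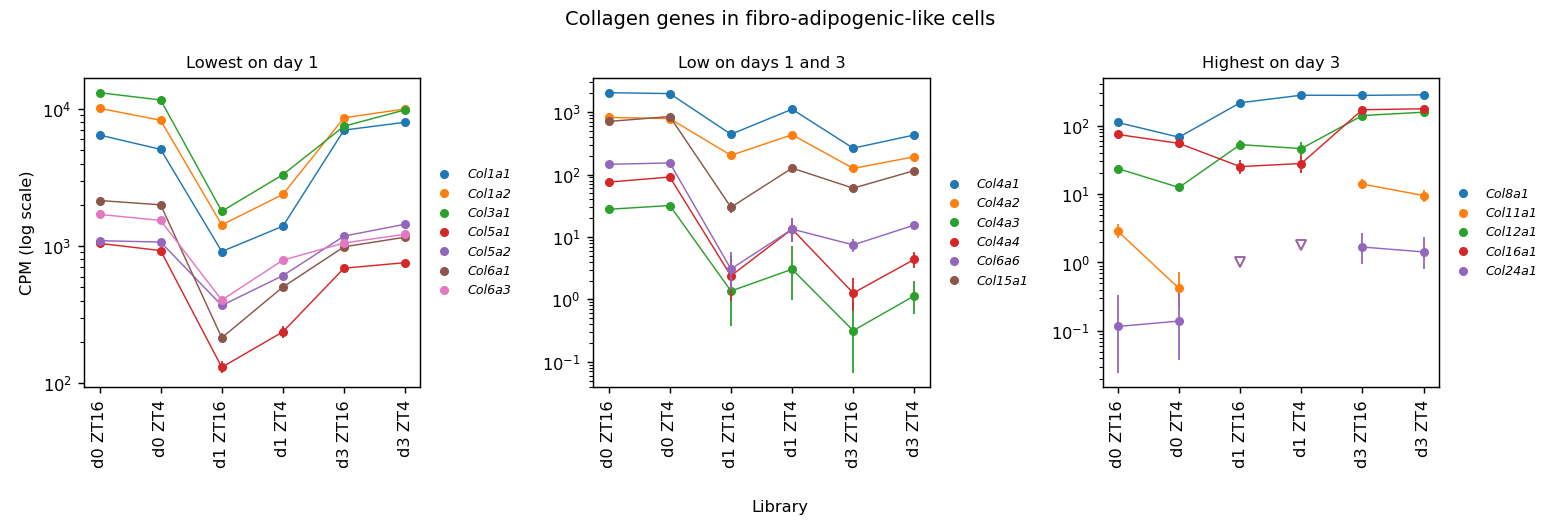
CPM (log axis) of 18 collagen genes in fibro-adipogenic-like cells by library, with 95% counting intervals as bars; open triangles stand for 0 UMIs and are drawn at the limit of 3 counts, and lines join the libraries of a gene. Col1a1, Col1a2 and Col3a1 dip on day 1, Col4a3, Col4a4 and Col6a6 are low on days 1 and 3, and Col12a1, Col16a1 and Col11a1 are highest on day 3.

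The fibro-adipogenic-like class was not the same mix of cells on each day. Day 0 cells fell in clusters led by Inmt and Gdf10, by Pi16 and by Smoc2, and most cells of days 1 and 3 in a cluster led by Cxcl5, Postn and Cthrc1, in which 6 of the 12 class markers were found in 10% or more of the cells with a level 2-fold or more that of all other cells, and none stood among its 10 leading genes. The 12 markers together stood at 60699 and 68641 CPM at ZT16 and ZT4 on day 0, 7549 and 12882 CPM on day 1 and 8816 and 10928 CPM on day 3. Day 1 cells with a UMI of Pdgfra, the receptor that defines these progenitors, numbered 107 of 166 at ZT16 and 70 of 89 at ZT4. In them collagens made up 0.702% and 1.27% of UMIs, against 0.424% and 0.465% in the day 1 cells without a Pdgfra UMI. The 0.674% and 1.23% of the whole class take in both sets of cells. At a finer clustering most day 1 cells fell in an unnamed cluster led by Cxcl5 and Tnc, which left under 50 fibro-adipogenic-like cells in a day 1 library and no comparison with it.

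The low day 1 level was also seen in the median cell. The median share of a fibro-adipogenic-like cell's UMIs from collagens was 3.74% (day 0), 0.271% (day 1) and 2.80% (day 3) at ZT16. At ZT4 the median was 3.38% (day 0), 0.619% (day 1) and 3.25% (day 3). Day 1 cells were widely spread, with lower and upper quartiles of 0.0884% and 0.663% at ZT16 and 0.136% and 2.44% at ZT4. The day 0 quartiles were 2.57% and 5.24% at ZT16 and 2.38% and 4.64% at ZT4. At ZT4 the upper quartile of day 1 was thus above the lower quartile of day 0. A Col1a2 UMI was found in 99.7% and 99.7% of fibro-adipogenic-like cells at ZT16 and ZT4 on day 0, then 74.1% and 78.7% on day 1 and 94.9% and 95.3% on day 3. After thinning each cell to 1000 UMIs the shares were 98.7% and 98.5%, 45.6% and 54.5%, and 91.7% and 91.5%. Neutrophil-like cells, at median depths of 2474 and 2349 UMIs on day 1 against 13746 and 15692 in fibro-adipogenic-like cells, had a Col1a2 UMI in 0.333% and 0.187% (thinned 0.216% and 0.0418%).

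The day 0 clusters carried different collagens. Col15a1 had 1778 and 2122 CPM at ZT16 and ZT4 in the Smoc2-led cluster, 568 and 798 CPM in the Inmt-led cluster and 41.2 and 40.4 CPM in the Pi16-led cluster. Col4a1 followed the same order, with 3916 and 3827, 2008 and 2080, and 417 and 524 CPM. Col14a1 ran the other way, with 71.3 and 57.4 CPM in the Smoc2-led cluster, 479 and 406 CPM in the Inmt-led and 757 and 723 CPM in the Pi16-led. The Smoc2-led cells thus had most basement membrane and multiplexin RNA and the Pi16-led cells most Col14a1. Col6a6 had 298 and 286 CPM in the Smoc2-led cluster, 121 and 140 CPM in the Inmt-led and 62.6 and 82.9 CPM in the Pi16-led. Col23a1 had 39.3 and 55.6 CPM in the Smoc2-led cluster and at most 7.63 CPM in the other two. Col4a4 had 117 and 134, 85.5 and 114, and 15.2 and 24.0 CPM, and Col8a1 173 and 108, 120 and 71.5, and 29.0 and 28.9 CPM, in that order of clusters.

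Other genes of the collagen pathway were counted in lists. Of 20 measured genes that fold and modify chains, 0 were higher (all genes 10.1%) and 4 lower (all genes 20.2%) on day 1 against day 0 in fibro-adipogenic-like cells, a lower share like that of all genes. Between day 3 and day 0, 1 was higher (all genes 9.04%) and 1 lower (all genes 12.8%). Serpinh1, the collagen chaperone, had 1142 and 1235 CPM at ZT16 and ZT4 on day 0, 901 and 943 CPM on day 1 and 1694 and 1860 CPM on day 3. P4ha3, a prolyl hydroxylase subunit, had 1.94 and 1.05 CPM on day 0, 2.38 and 2.43 CPM on day 1 and 65.4 and 62.0 CPM on day 3. Of 14 genes for processing and crosslinking, 0 were higher and 6 lower on day 1 against day 0, and 2 were higher and 3 lower on day 3, which on day 3 is about 1 gene in each direction beyond the shares of all genes. The pair that was higher was Loxl3 and Lox, and Lox, the lysyl oxidase that crosslinks fibrils, had 60.9 and 74.9 CPM on day 0, 91.2 and 112 CPM on day 1 and 357 and 436 CPM on day 3.

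The partners of type IV collagen in the basement membrane were counted next. On day 1 against day 0 all 10 measured were lower (all genes 20.2%). Their median log2 difference was -2.69 at ZT16 and -1.77 at ZT4 (all genes -0.44 and -0.18). On day 3 against day 0, 0 of 11 were higher (all genes 9.04%) and 5 were lower (all genes 12.8%), namely Lama2, Lamb2, Lamc1, Nid1 and Hspg2. Lama2, the laminin chain of muscle, had 698 and 637 CPM at ZT16 and ZT4 on day 0, 54.8 and 149 CPM on day 1 and 78.5 and 104 CPM on day 3. Hspg2, which encodes perlecan, had 1099 and 1038, 193 and 377, and 269 and 252 CPM. Of 12 fibril-organising genes 1 (Thbs4) was higher (all genes 10.1%) and 10 lower (all genes 20.2%) on day 1 against day 0. On day 3 against day 0, 3 were higher (Bgn, Fmod and Thbs4, all genes 9.04%) and 4 lower (Dcn, Ogn, Prelp and Tnxb, all genes 12.8%). Of the collagen receptors 0 of 9 were higher (all genes 10.1%) and 4 lower (all genes 20.2%) on day 1. On day 3, 1 of 10 was higher (all genes 9.04%) and 3 lower (all genes 12.8%).

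Tenocyte-like cells were compared on day 0 alone, where 141 (ZT16) and 87 (ZT4) were found. They had the highest level of any member. Col1a1 had 36087 and 40210 CPM at ZT16 and ZT4 and Col1a2 34094 and 40813 CPM. The UMI ratio of these chains was 1.06 and 0.985, against 0.639 and 0.614 in fibro-adipogenic-like cells of day 0. Col3a1 was far below them, at 3538 and 1492 CPM, which gave 0.104 and 0.0366 UMIs per Col1a2 UMI.

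Fibrillar chains known from cartilage and fibril-associated chains of tendon were highest in these cells. Col11a1 had 958 and 893 CPM at ZT16 and ZT4, Col11a2 had 369 and 478 CPM and Col2a1 had 71.6 and 136 CPM. Col12a1 had 962 and 890 CPM, and Col22a1, the collagen of the muscle-tendon junction, had 199 and 136 CPM. Col2a1 and Col22a1 were above free RNA in this class and in no other. Col8a1 (349 and 266 CPM), Col16a1 (306 and 245 CPM), Col8a2 (138 and 129 CPM) and Col13a1 (39.9 and 75.7 CPM) were also higher here than in fibro-adipogenic-like cells of day 0. Type VI chains were present, with Col6a1 at 1219 and 1006 CPM.

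Endothelial-like cells, with 3431 and 2861 cells at ZT16 and ZT4 on day 0, then 363 and 157 on day 1 and 148 and 217 on day 3, were type IV cells. Col4a1 had 924 and 1689 CPM on day 0, 1685 and 2500 CPM on day 1 and 2086 and 2330 CPM on day 3. Col4a2 had 574 and 1073 CPM on day 0, 967 and 1492 CPM on day 1 and 1073 and 1390 CPM on day 3. Each injured library was above the day 0 library of its own collection time in both genes. The ratio of the chains lay between 1.57 and 1.94 over the 6 libraries, against 2.10 to 2.57 in fibro-adipogenic-like cells.

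The members called higher were both multiplexins, Col18a1 on both days and Col15a1 on day 3. Col18a1 had 11.3 and 14.0 CPM at ZT16 and ZT4 on day 0, 80.5 and 71.5 CPM on day 1 and 137 and 167 CPM on day 3, a fold of 12.2 (ZT16) and 11.9 (ZT4) on day 3 over day 0. Col15a1 had 65.5 and 134 CPM on day 0, 138 and 168 CPM on day 1 and 426 and 440 CPM on day 3, where its call was lost with doublets kept (log2 0.86 at ZT4). All injured libraries of the class were above both day 0 libraries in both genes. The class leaves out an unnamed cluster led by Apln, Pgf and Angpt2, which had 9 endothelial markers. That cluster held 167 and 108 cells at ZT16 and ZT4 on day 1, and its part in this order was not tested. In all unnamed cells of day 1, collagens neither fibrillar nor type IV made up 0.00525% and 0.0108% of UMIs. In the endothelial-like class they made up 0.0257% and 0.0281%. The unnamed cells also took in 499 and 316 cells of a cluster led by Csrp3 and Mt3, with 0.00309% and 0.000831% collagen. The unnamed value is thus not that of the Apln-led cluster alone. All collagens together made up 0.243% and 0.330% of UMIs in the Apln-led cluster and 0.292% and 0.431% in the endothelial-like class. Within the large cluster led by Aqp1, Car4 and Gpihbp1, a capillary set, Col15a1 had 75.9 and 160 CPM on day 0, 161 and 197 CPM on day 1 and 465 and 481 CPM on day 3.

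Col8a1 had 32.7 and 36.0 CPM at ZT16 and ZT4 on day 0, 22.7 and 23.2 CPM on day 1 and 38.9 and 42.7 CPM on day 3. On day 0 it was highest in the cluster led by Gkn3, Sema3g and Gja5, with 297 and 409 CPM. The other endothelial-like clusters with at least 50 cells in a library had 0 to 13.3 CPM. On days 1 and 3 the Gkn3-led cluster had too few cells for a value. Col28a1 had 20.4 and 9.44 CPM and Col13a1 4.45 and 3.27 CPM on day 0. Col3a1 had 29.3 and 49.3 CPM on day 0, 1.30 and 3.57 CPM on day 1 and 15.2 and 18.3 CPM on day 3, not above free RNA in any of these libraries.

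Of 20 members measured in endothelial-like cells on day 1 against day 0, 1 was higher (Col18a1, all genes 4.11%) and 7 were lower (all genes 7.65%). On day 3 against day 0, 2 of 20 were higher (Col18a1 and Col15a1, all genes 2.94%) and 4 were lower (all genes 3.88%). The lower members were Col1a1, Col1a2, Col3a1, Col5a1, Col6a1, Col6a2 and Col28a1 on day 1 and Col1a2, Col5a1, Col6a1 and Col12a1 on day 3. Col1a1, Col1a2, Col3a1 and Col6a2 were not above free RNA in any library of the comparison. The free RNA of Col3a1 itself was 16.2 and 24.7 CPM at ZT16 and ZT4 on day 0. With free RNA subtracted there were 5 calls in both directions together on day 1, against 8 without subtraction. Subtraction also turned Col5a1 at ZT16 to log2 1.06 on day 1 and 2.44 on day 3, and Col6a2 at ZT16 on day 1 to 0.17. With thinned cells Col6a1 on day 1 at ZT4 stood at 0.094 and Col5a1 on day 3 at ZT16 at 0.028. The 12 fibro-adipogenic markers together stood at 195 and 323 CPM in endothelial-like cells of day 0 (ZT16 and ZT4), 21.4 and 41.1 CPM on day 1 and 49.1 and 61.0 CPM on day 3, and their part in the lower calls was not tested. Of 11 basement membrane partners 0 were called on day 1 in either direction, and Nid2 was the 1 called higher on day 3.

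Mural-like cells, with 760 and 545 cells at ZT16 and ZT4 on day 0, then 112 and 61 on day 1 and 61 and 54 on day 3, reached the highest Col4a1 level of any class and library, on day 1. Col4a1 had 1131 and 1432 CPM on day 0, 2374 and 3886 CPM on day 1 and 1624 and 1944 CPM on day 3. Col4a2 had 673 and 831 CPM on day 0, 1110 and 1774 CPM on day 1 and 750 and 1022 CPM on day 3. Both were highest on day 1 at each collection time, and the day 1 call of Col4a1 was lost with doublets kept (log2 0.98 at ZT16) and with thinned cells (0.84). Col1a2 had 344 and 371 CPM at ZT16 and ZT4 on day 0, 481 and 493 CPM on day 1 and 534 and 636 CPM on day 3. Col18a1 had 43.3 and 44.5 CPM on day 0, 263 and 346 CPM on day 1 and 534 and 364 CPM on day 3, the called member furthest from day 0 in this class on both days.

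Among the fibrillar chains, Col5a3 was called higher in mural-like cells on both days. It had 84.7 and 150 CPM at ZT16 and ZT4 on day 0, 284 and 471 CPM on day 1 and 338 and 420 CPM on day 3. Col3a1 had 339 and 537 CPM on day 0, 461 and 575 CPM on day 1 and 815 and 706 CPM on day 3, without a call. Col6a3 had 292 and 397 CPM on day 0, 735 and 692 CPM on day 1 and 730 and 697 CPM on day 3, also without a call. Col15a1, without a call as well, had 138 and 260 CPM on day 0, 309 and 315 CPM on day 1 and 301 and 463 CPM on day 3. In all 4 genes each injured library was above the day 0 library of the same collection time. This holds for the class as a whole, whose mix of cells was not held constant. Its smooth muscle cluster, led by Myh11, supplied 71 of 760 cells at ZT16 and 71 of 545 at ZT4 in uninjured muscle. After injury its part was 13 of 112 and 4 of 61 (day 1), then 5 of 61 and 3 of 54 (day 3). At ZT4 the smooth muscle share was thus lower after injury.

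On day 1 against day 0, 4 of 19 measured members were higher in mural-like cells (Col18a1, Col8a1, Col5a3 and Col4a1, all genes 3.78%) and 1 was lower (Col4a4, all genes 6.79%). On day 3 against day 0, 2 of 20 were higher (Col18a1 and Col5a3, all genes 3.56%) and 0 were lower (all genes 2.92%). The median log2 difference was 0.72 and 0.76 on day 1 at ZT16 and ZT4 (all genes -0.10 and -0.06) and 0.95 and 0.48 on day 3 (all genes 0.01 and 0.03). Within day 0, Col15a1 had 161 and 318 CPM in the pericyte cluster led by Kcnj8 and Abcc9 and 4.31 and 50.3 CPM in the smooth muscle cluster led by Myh11, Acta2 and Pln. Col5a3 had 98.7 and 181 CPM in the Kcnj8-led cluster and 4.31 and 41.5 CPM in the Myh11-led. At ZT4 the day 0 Col15a1 level of the Kcnj8-led cluster was not below the whole-class level of day 1. Otherwise both genes were lower in that day 0 cluster than in the injured class. All collagens made up 0.434% and 0.563% of UMIs in the Kcnj8-led cluster in uninjured muscle, 0.775% and 1.03% at day 1, and 0.788% and 0.813% at day 3. The part of the cell mix in the class differences was not tested. Col25a1, a transmembrane collagen, had 4.78 and 3.31 CPM in mural-like cells at ZT16 and ZT4 on day 0. It was above free RNA in this class alone, and there at ZT16 on day 0 only. The 12 fibro-adipogenic markers stood at 638 and 1362 CPM in mural-like cells of day 0, and their part in the fibrillar levels was not tested.

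**Figure D4:**
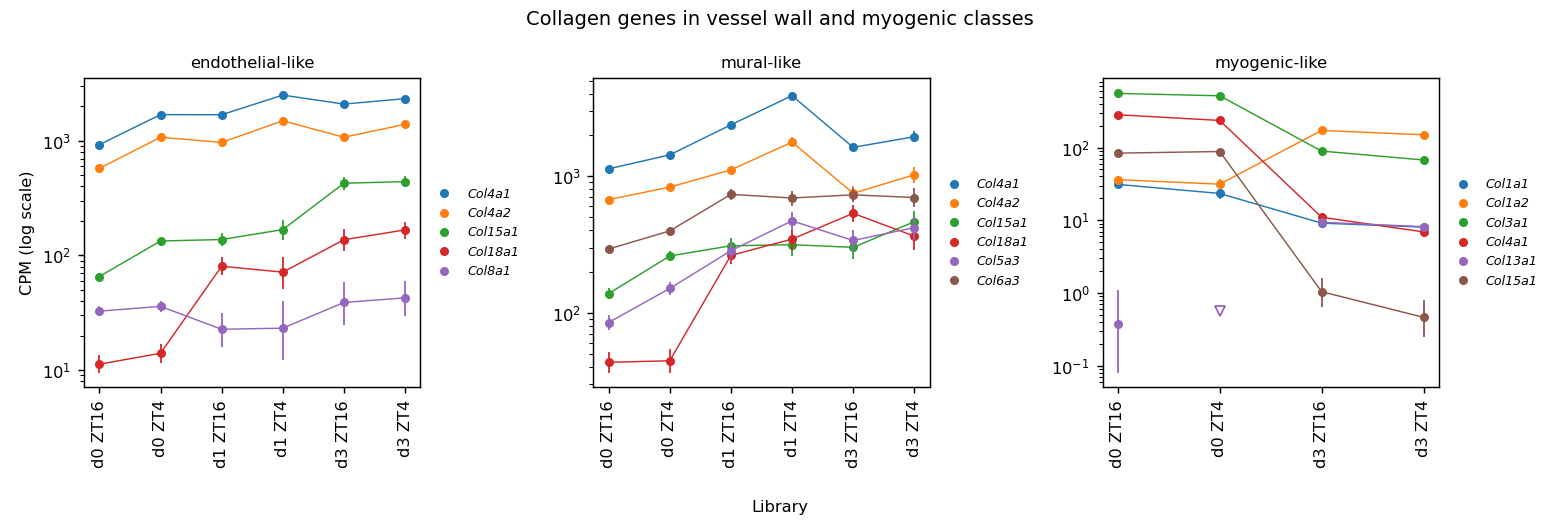
CPM (log axis) of collagen genes in endothelial-, mural- and myogenic-like cells by library, with 95% counting intervals as bars; the open triangle stands for 0 UMIs of Col13a1 and is drawn at the limit of 3 counts. Col18a1 lies between 11.3 and 44.5 CPM in the vessel classes on day 0 and between 71.5 and 534 CPM on days 1 and 3, and in myogenic-like cells Col1a2 is higher on day 3 while Col3a1, Col4a1 and Col15a1 are lower.

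Myogenic-like cells were compared between day 3 (504 cells at ZT16 and 714 at ZT4) and day 0 (1043 and 897), since day 1 had 36 and 18. They had less collagen RNA as a share on day 3, 0.0500% and 0.0401% of UMIs, against 0.151% and 0.151% on day 0. Of 25 members measured, 2 were higher (Col13a1 and Col1a2, all genes 15.6%) and 13 lower (all genes 19.6%). The median log2 difference was -1.53 at ZT16 and -2.41 at ZT4, against 0.00 and -0.16 over all genes.

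Col15a1, Col4a1 and Col4a2 were the lower members furthest from day 0. Col15a1 had 1.05 and 0.464 CPM at ZT16 and ZT4 on day 3, against 83.8 and 88.2 CPM on day 0, which is 78.3-fold and 183-fold lower. Col4a1 had 11.03 and 6.92 CPM on day 3, against 282 and 236 CPM on day 0. Col4a2 had 5.12 and 3.28 CPM on day 3, against 82.3 and 86.3 CPM on day 0. In these genes every day 3 library was below every day 0 library. Col18a1, the other multiplexin, stood at 22.7 and 22.7 CPM on day 3 and 22.1 and 21.1 CPM on day 0. Among the partners of type IV collagen, 2 of 11 were higher on day 3 (Lama5 and Lamb1, all genes 15.6%) and 7 lower (all genes 19.6%). Lama5 had 21.7 and 17.0 CPM on day 3 and 3.94 and 5.70 CPM on day 0.

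The fibrillar chains stood in another order on each day. Col3a1 had 89.5 and 67.5 CPM at ZT16 and ZT4 on day 3, against 555 and 515 CPM on day 0. Col1a2 had 172 and 150 CPM on day 3, against 36.2 and 31.4 CPM on day 0, where it was not above free RNA. Col1a1, its usual partner, had 9.14 and 8.07 CPM on day 3, against 31.1 and 23.4 CPM on day 0. Of these libraries Col1a1 was above free RNA only at ZT16 on day 0, with or without NK cell-like cells in the background. The background of day 3 held Col1a1 at 10.6 and 37.9 CPM, and the part of free RNA in the ratios that follow was not tested. The UMI ratio of Col1a1 to Col1a2 was 0.0531 and 0.0539 on day 3 (counting intervals 0.0454 to 0.0619 and 0.0469 to 0.0616), against 0.860 and 0.745 on day 0. In fibro-adipogenic-like cells of the same day 3 libraries it was 0.81 and 0.80. On day 0 Col3a1 had 15.3 and 16.4 UMIs per Col1a2 UMI in myogenic-like cells, against 1.30 and 1.41 in fibro-adipogenic-like cells. In the annotation Col1a2 overlaps Gm43921 and Col3a1 overlaps Gm47302 on the same strand, where counting can split reads between the genes.

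At ZT4 on day 3 Col1a2 was above free RNA in myogenic-like cells only with NK cell-like cells left out of the background, which brought the members above it there to 18 instead of 12. In that library 1 NK cell-like cell held 218 of the 243 Col1a1, Col1a2 and Col3a1 UMIs of its class. Col1a2 was found in every myogenic-like cluster of day 3. It had 227 and 185 CPM at ZT16 and ZT4 in the cluster led by Cdh15 and Igfbp2, 91.1 and 76.8 CPM in the Myog- and Mymx-led cluster and 161 and 181 CPM in the cluster led by histone genes. Col3a1 had 116 and 80.6 CPM, 48.7 and 46.0 CPM, and 70.7 and 59.4 CPM in the same clusters. With each cell thinned to 1000 UMIs, a Col1a2 UMI was in 15% and 14.2% of cells on day 3 and 2.60% and 4.02% on day 0. The unthinned shares were 74.8% and 77.2% at median depths of 42197 and 44189 UMIs on day 3, and 12.9% and 15.7% at 6776 and 5597 UMIs on day 0. T cell-like cells of day 3 had a thinned share of 1.66% and 0% and an unthinned one of 7.73% and 5.74%, at median depths of 4391 and 3761 UMIs. The 12 fibro-adipogenic markers stood at 162 and 170 CPM in myogenic-like cells of day 3 and 1344 and 1271 CPM on day 0.

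Other myogenic members were called in either direction. Col13a1, a transmembrane collagen of the neuromuscular junction, had 9.41 and 8.17 CPM at ZT16 and ZT4 on day 3, against 3 and 0 UMIs on day 0. Its level was alike in the 3 day 3 clusters, between 7.82 and 10.9 CPM. Col6a1 had 30.5 and 21.0 CPM on day 3, against 122 and 131 CPM on day 0. Col6a3 was nearly absent beside it on day 0, with 0.0596 and 0.0377 UMIs per Col6a1 UMI, against 0.792 and 0.769 in fibro-adipogenic-like cells. Col5a2 had 63.8 and 52.6 CPM on day 3 and 93.8 and 90.3 CPM on day 0, without a call. Col19a1, which was above free RNA in this class alone, had 2.25 and 2.64 CPM on day 3, against 11.95 and 15.6 CPM on day 0. Col26a1 had 5.43 and 3.68 CPM on day 3, against 32.0 and 30.8 CPM on day 0. With thinned cells the calls of Col19a1 (log2 -0.92 at ZT4) and Col26a1 (-0.92 at ZT16) were lost. Col17a1, known from the anchoring of skin, had 1.25 and 1.53 CPM on day 3 and 2.03 and 6.84 CPM on day 0.

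Glial-like cells (115 at ZT16 and 89 at ZT4 on day 0) had a set of their own. Col20a1, a fibril-associated collagen, was their most abundant member at 1278 and 1382 CPM, and it reached at most 1.99 CPM in any library of fibro-adipogenic-like cells. Col1a2 had 1139 and 1128 CPM and Col1a1 166 and 360 CPM, a ratio of 0.146 and 0.319 UMIs. Col4a1 had 396 and 360 CPM and Col4a2 347 and 355 CPM, a ratio of 1.14 and 1.01. Col27a1 had 136 and 162 CPM, Col11a1 123 and 119 CPM and Col16a1 107 and 119 CPM. Col9a3, a fibril-associated chain of cartilage, had 39.9 and 39.8 CPM and was above free RNA in this class alone.

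Collection times were compared within a day, with a member called at a fold of at least 1.5 and at least 30 UMIs. Col5a3 was the member called in the most classes on day 0, in 5 of 6, each time lower at ZT16. It had 535 CPM at ZT16 and 1084 CPM at ZT4 in fibro-adipogenic-like cells (log2 -1.02, counting interval -1.05 to -0.99). Col5a3 had 32.3 and 103 CPM at ZT16 and ZT4 in myogenic-like cells (log2 -1.67) and 28.5 and 57.5 CPM in tenocyte-like cells (log2 -1.01). It had 84.7 and 150 CPM in mural-like cells (log2 -0.83) and 2.73 and 9.20 CPM in endothelial-like cells (log2 -1.74), where it was not above free RNA. In glial-like cells Col5a3 had 169 and 214 CPM, within the fold. On day 1 it was lower at ZT16 in fibro-adipogenic-like cells too, at 190 and 425 CPM, and on day 3 it had 283 and 395 CPM, within the fold.

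Col8a1 was higher at ZT16 in 3 classes on day 0, with 111 CPM at ZT16 and 67.7 CPM at ZT4 in fibro-adipogenic-like cells (log2 0.72). In mural-like cells Col8a1 had 22 and 9 UMIs at ZT16 and ZT4 and in myogenic-like cells 40 and 14 UMIs. Col15a1 was lower at ZT16 in both vessel classes, with 65.5 and 134 CPM at ZT16 and ZT4 in endothelial-like cells (log2 -1.03) and 138 and 260 CPM in mural-like cells (log2 -0.92). In glial-like cells Col15a1 was higher, at 112 CPM at ZT16 and 24.9 CPM at ZT4 (70 and 10 UMIs, log2 2.11). That call was lost with collagens in the clustering (log2 -0.27), with doublets kept (0.23) and with a mitochondrial limit of 20% (0.034). Col4a1 (log2 -0.87) and Col4a2 (log2 -0.90) were lower at ZT16 in endothelial-like cells, and Col28a1 was higher (log2 1.11).

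By class on day 0, 8 of 32 measured members were higher at ZT16 in fibro-adipogenic-like cells (all genes 8.46%) and 1 was lower (all genes 5.84%). The higher ones were Col4a6, Col11a1, Col4a5, Col27a1, Col12a1, Col8a2, Col8a1 and Col9a2, led by Col4a6 at log2 3.76 (30 and 2 UMIs) and Col11a1 at 2.73. Col4a5 had 67.1 CPM at ZT16 and 23.8 CPM at ZT4, and Col27a1 50.2 and 21.4 CPM. In endothelial-like cells 2 of 20 were higher (all genes 4.97%) and 9 lower (all genes 12.2%). In mural-like cells 2 of 19 were higher (all genes 7.56%) and 4 lower (all genes 9.96%). Of the lower endothelial-like members, Col5a3, Col3a1 and Col6a2 were not above free RNA in either library, and Col5a1 only at ZT4. The 12 fibro-adipogenic markers stood at 195 and 323 CPM in endothelial-like cells at ZT16 and ZT4 and 638 and 1362 CPM in mural-like cells. Their part in these calls was not tested. In myogenic-like cells 1 of 21 was higher (Col8a1, all genes 9.09%) and 3 were lower (Col5a3, Col17a1 and Col6a6, all genes 7.39%). In tenocyte-like cells 3 of 24 were higher (Col26a1, Col3a1 and Col14a1, all genes 13.6%) and 3 lower (Col5a3, Col2a1 and Col13a1, all genes 7.34%). In glial-like cells 2 of 19 were higher (Col15a1 and Col18a1, all genes 9.65%) and 1 was lower (Col1a1, all genes 7.38%), which turned to log2 0.45 with doublets kept.

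In injured muscle, 0 of 20 members measured in day 1 fibro-adipogenic-like cells were higher at ZT16 (all genes 5.92%) and 14 were lower (all genes 16.1%), with a median log2 of -0.87 (all genes -0.11). Col15a1 (log2 -2.08), Col6a6 (-2.08) and Col4a1 (-1.33) were furthest apart. These libraries held 166 and 89 such cells at ZT16 and ZT4, of which 107 and 70 had a Pdgfra UMI. The 12 class markers together were lower at ZT16 as well, at 7549 CPM against 12882 CPM at ZT4. Of 9 basement membrane partners 0 were higher and 7 lower at ZT16, and of 10 fibril-organising genes 0 were higher and 5 lower. The lower level was thus not particular to collagens. On day 3, 1 of 27 was higher at ZT16 (Col4a5, all genes 4.36%) and 6 were lower (all genes 4.0%). Col4a5 was thus higher at ZT16 on both day 0 and day 3, at 16.6 and 6.56 CPM on day 3. In day 3 myogenic-like cells 8 of 23 were higher at ZT16 (all genes 8.52%) and 0 lower (all genes 1.65%), led by Col27a1 at 7.89 and 3.07 CPM (log2 1.36).

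**Figure D5:**
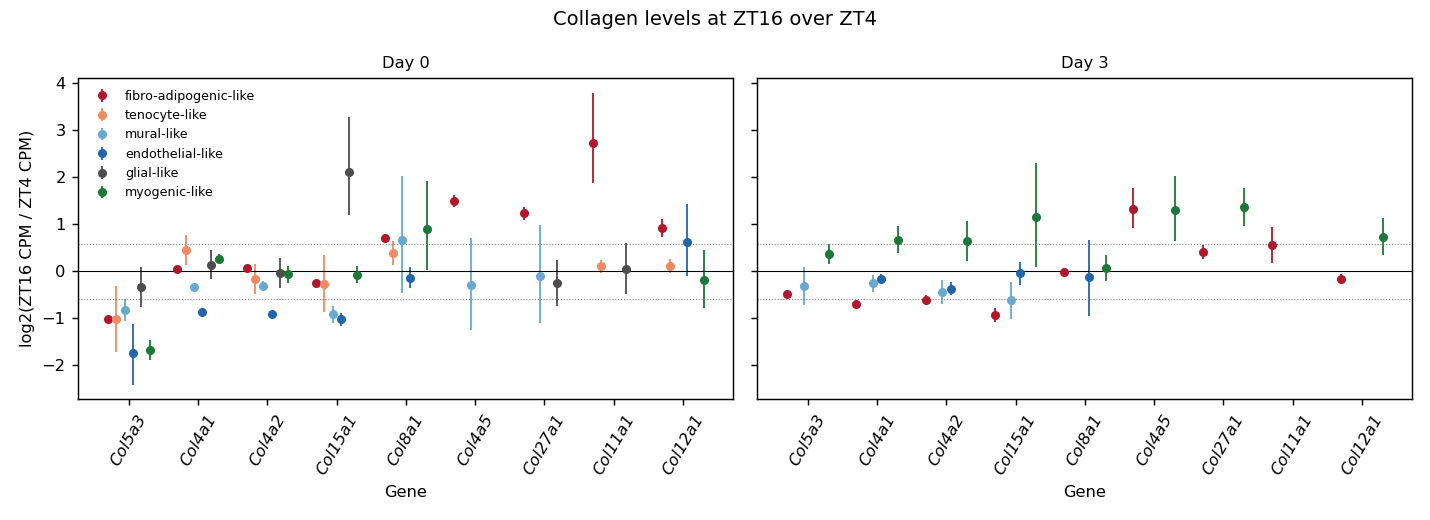
Log2 of the ZT16 level over the ZT4 level for 9 collagen genes on day 0 (left) and day 3 (right), with 95% counting intervals as bars, points coloured by class and dotted lines at a fold of 1.5. Values are drawn where both libraries together held at least 30 UMIs. Every Col5a3 point of day 0 lies below 0, and Col4a5 lies above 0 in each class drawn but the mural-like one of day 0.

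By the free RNA rule few of the 44 members were left without a source. Col10a1, a chain of growth cartilage, had 6 UMIs in all, Col6a4 had 15 and Col9a1 had 16. Col25a1 had 39 and Col4a6 53 UMIs, which limits what can be read of them to the sum over a class. At the other end Col3a1 held 884243, Col1a2 780994 and Col1a1 547699 of the 3215343 collagen UMIs.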

How the data were processed

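The starting point was 1 matrix of raw UMI counts per library, deposited by the authors, with 32285 genes and only barcodes called as cells upstream. Software stated for them differs: cellranger 6.1.2 per the file headers, and Cell Ranger 1.0.0 with mm10 in the submitters' processing notes. The release of the gene annotation was not stated in either. Totals ran from 72747703 to 132221721 UMIs per library.

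Barcodes needed 200 genes, 500 UMIs and no more than 10% of UMIs from mitochondria, and 5563 barcodes with the highest scrublet scores were removed (0.8% per 1000 barcodes). All libraries were clustered together on 2000 variable genes without collagens, with 30 principal components, 15 neighbours and Leiden resolution 1.0 (scanpy 1.11.5, leidenalg 0.10.2, scikit-learn 1.9.0, Python 3.11.15). A class name took 3 or more markers, each 2-fold above the remaining cells and present in 10% or more of the cluster. A cluster stayed unnamed where another class had more markers among its 10 leading genes. So did a cluster of low depth with none of its markers among these genes. There were 3 unnamed clusters. The cluster led by Apln, Pgf and Angpt2 had 9 endothelial markers. Of these none, but Kit, a mast cell marker, was among its leading genes. The endothelial-like class thus leaves out its 167 and 108 day 1 cells at ZT16 and ZT4. UMIs were summed per class and library where there were at least 50 cells. Folds add 0.5 UMI to each count, and intervals are exact Poisson or binomial ones (scipy 1.17.1). A count of 0 was given a limit of 3 counts. GENCODE vM21 held 44 of 44 members.

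The members, lists and comparisons were chosen with earlier results of these data known. By rule the text names the 5 highest members of a class, up to 10 called members furthest from a fold of 1 in each comparison, pathway genes past the fold, and the remaining members by their levels. The sums and calls were checked on simulated data. Alternatives concerned doublets, the mitochondrial limit, resolution, clustering with collagens, thinning, scaling, free RNA, minimum UMIs and folds. A background without NK cell-like cells was added after seeing the data.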

Additional observations from a re-analysis of the deposited data

How the results depend on the processing

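No paired analysis was possible because each day and collection time is 1 library, so that the groups share fewer than 2 replicate numbers, and no library could be left out for the same reason. Of 1211 recomputed log2 differences 1059 moved by less than their counting interval, 144 moved further and 8 turned sign. Counts of collagens called, with the value as reported given last, were as follows, and where no construction shows it the cause was not tested. With doublets kept, endothelial-like calls were 20 against 8 (day 1 and day 0) and 16 against 6 (day 3 and day 0), mural-like calls of day 3 and day 0 were 4 against 2, and endothelial-like members above free RNA were 26 against 16. Thinned to 1000 UMIs, which leaves fewer genes measured, fibro-adipogenic-like calls were 11 against 18 (day 3 and day 0), 8 against 15 (day 3 and day 1) and 4 against 7 (day 3 collection times). In the same setting mural-like calls of day 1 and day 0 were 2 against 5, and myogenic-like calls were 7 against 15 (days), 1 against 4 (day 0 collection times) and 2 against 8 (day 3 collection times). Glial-like calls were then 0 against 3, and members above free RNA were 15 against 25 (myogenic-like) and 12 against 22 (glial-like). With free RNA subtracted, endothelial-like calls of day 1 and day 0 were 5 against 8. With collagens in the clustering, glial-like calls of collection times were 8 against 3.

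With at least 100 UMIs, calls of collection times were 1 against 4 (myogenic-like, day 0), 5 against 8 (myogenic-like, day 3), 3 against 6 (tenocyte-like) and 1 against 3 (glial-like). With at least 10 UMIs, calls were 8 against 5 (mural-like, day 1 and day 0), 11 against 7 (fibro-adipogenic-like, day 3 collection times) and 7 against 3 (glial-like). A fold of 1.5 between days gave mural-like calls of 11 against 5 (day 1) and 8 against 2 (day 3). A fold of 2 between collection times gave, on day 0, 5 against 9 (fibro-adipogenic-like), 3 against 11 (endothelial-like), 0 against 6 (mural-like), 2 against 4 (myogenic-like) and 3 against 6 (tenocyte-like). It gave 7 against 14 and 3 against 7 in fibro-adipogenic-like cells of days 1 and 3 and 3 against 8 in day 3 myogenic-like cells. Resolution 2.0 gave no value for the fibro-adipogenic-like comparisons with day 1.

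The log2 values that turned sign were Col1a1 between collection times in glial-like cells with doublets kept (0.45) and Col15a1 there with collagens in the clustering (-0.27). With thinning they were Col4a3 on day 1 against day 0 at ZT4 in fibro-adipogenic-like cells (0.14), Col6a1 on day 1 against day 0 at ZT4 in endothelial-like cells (0.094) and Col5a1 on day 3 against day 0 at ZT16 there (0.028). With free RNA subtracted they were Col5a1 (1.06) and Col6a2 (0.17) on day 1 against day 0 and Col5a1 (2.44) on day 3 against day 0, all at ZT16 in endothelial-like cells. Depth limits members with few UMIs: 0 UMIs of Col11a1 in day 1 fibro-adipogenic-like cells allow up to 1.02 CPM at ZT16 and 1.82 CPM at ZT4.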

Other observations

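Col15a1 was also found in neutrophil-like cells, which are part of the free RNA background and so were not read against it. It had 21.1 and 23.9 CPM there at ZT16 and ZT4 on day 1 (228 and 281 UMIs) and 94.4 and 91.7 CPM on day 3 (37 and 60 UMIs). A Col15a1 UMI was in 4.21% and 5.04% of neutrophil-like cells on day 1, against 0.356% and 0.303% of monocyte-macrophage-like cells of the same libraries, which were at 0.286 and 0.285 CPM. The clusters differed: Col15a1 had 131 and 72.6 CPM at ZT16 and ZT4 on day 1 in the cluster led by Il1f9, Hcar2 and Pdcd1lg2, 13.9 and 14.5 CPM in the one led by Siglecf and Mmp9 and 2.93 and 3.95 CPM in the Retnlg-led one. On day 3 the Siglecf-led cluster had 81.8 and 95.3 CPM.

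Monocyte-macrophage-like cells of day 0 held Col14a1 at 23.7 and 17.3 CPM at ZT16 and ZT4 (118 and 117 UMIs). T cell-like cells had 0 UMIs of Col14a1 in every library. On days 1 and 3 Col14a1 was between 0.404 and 1.23 CPM in monocyte-macrophage-like cells. Dendritic-like cells had Col27a1 at 7.46 and 3.96 CPM at ZT16 and ZT4 on day 3 (77 and 57 UMIs), and T cell-like cells had 0.

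Of the unnamed clusters, the one led by Sfrp5, Cldn1 and Krt19 on day 0 had Col3a1 at 3653 and 2651 CPM and Col4a1 at 835 and 677 CPM at ZT16 and ZT4. The one led by Apln, Pgf and Angpt2 on day 1 had Col4a1 at 1458 and 1949 CPM and Col4a2 at 883 and 1132 CPM.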
